A study of Mus musculus with 19 samples.

Results

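Figla, Nobox, Sohlh1, Sohlh2, Lhx8, Taf4b and Tbpl2 are transcription factors of the female germ line, and they were followed here by name in RNA-seq libraries of mouse MII oocytes and 2cell embryos. The 7 genes are part of 25891 genes listed in the deposited table, and all 7 were found there. They are grouped by their known role, and earlier results of these data were known when the group was drawn up. Heterozygous (CPEB3+/-) females gave 5 MII and 5 2cell libraries, and females labelled as knockouts (CPEB3-/-) gave 5 MII and 4 2cell libraries, each made from 5 cells per the methods. CPEB3 is an RNA-binding protein that acts on the 3′UTR of messages. The knockout is conditional, with a Cre driven by the Zp3 promoter and both alleles floxed (CPEB3 LoxP/LoxP; ZP3Cre+/-). This Cre acts in oocytes once they have begun to grow, and CPEB3 protein made before that can remain. The members are switched on earlier, in germ cells and small follicles, so the design asks about RNA that was already made or was still being made during growth. Heterozygotes served as controls. The methods give CPEB3 LoxP/-; ZP3Cre+/-, beside CPEB3+/+, as the control genotype, and do not say in so many words that the libraries labelled Het are of the former. All donors were BL6 females of 6-10 weeks, and every female received PMSG followed 48 h later by hCG, at 5 IU each. The 2cell embryos were collected 37 h after hCG from females mated with wild-type males, and their label is the genotype of the mother. Nothing in the labels says whether the libraries of a group came from separate females, so the p-values measure the spread between these libraries.

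In the mouse ovary the members form a relay. SOHLH1 and SOHLH2, helix-loop-helix factors of germ cells, act in primordial follicles together with LHX8, a LIM homeodomain factor. FIGLA, another helix-loop-helix factor, switches on the zona pellucida genes, and NOBOX, a homeodomain factor, drives many genes that only oocytes use. TAF4B is a gonad-enriched subunit of the TFIID complex. TBPL2 takes the place of the TATA-binding protein TBP in growing oocytes. Fully grown oocytes no longer transcribe, so RNA in MII oocytes was stored earlier, whereas most stored RNA is lost by the 2cell stage, when the embryo begins its own transcription.

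The 3′UTRs of the members were read because CPEB proteins bind U-rich elements there. In the longest annotated 3′UTRs (GENCODE vM21, GRCm38) the U-rich motif searched first was UUUUAU. The variants UUUUCAU together with UUUUACU were counted as U-rich as well, and so was the longer variant UUUUAAGU along with UUUUAAAU. The A-rich motifs, which include the polyadenylation signal, were AUUAAA and AAUAAA. Only the RNA strand was searched, and overlapping matches were counted. Over the 16988 genes with such a 3′UTR, 63.3% held at least 1 U-rich motif, 53.6% held UUUUAU, and the median 3′UTR was 1039 nucleotides long. Sohlh2 had 3 UUUUAU in a 3′UTR of 921 nucleotides, all of them within the last 110 nucleotides. Lhx8 had 2 UUUUAU in 665 nucleotides, and they lay farther upstream, at 550 and 474 nucleotides from the end. Figla had 1 UUUUCAU in a 3′UTR of only 120 nucleotides. None of the searched U-rich motifs was found for Nobox (281 nucleotides), Tbpl2 (266 nucleotides) or Sohlh1 (162 nucleotides). The sites of Sohlh2, the member called between genotypes in MII oocytes, and those of Lhx8 and Figla are shown with the motif in capitals, and Nobox is shown for its A-rich signal.
Sohlh2 at chr3:55209838-55209865, plus strand: aggauggcugUUUUAUauuucacugaaa
Sohlh2 at chr3:55209872-55209899, plus strand: uacacaaacaUUUUAUuguuaaaguguc
Sohlh2 at chr3:55209937-55209957, plus strand: auguuuucucUUUUAUaauaa
Lhx8 at chr3:154306826-154306853, minus strand: aauguuaauuUUUUAUuuaacacucaaa
Lhx8 at chr3:154306750-154306777, minus strand: ugcaagacacUUUUAUugauucuucauu
Figla at chr6:86020943-86020970, plus strand: agaugaguauUUUUCAUguaaaauauaa
Nobox at chr6:43303701-43303728, minus strand: cagugcaugcAAUAAAuaaaacaguaac
A match of letters is not a binding site.

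Taf4b had the longest 3′UTR of the members, 2231 nucleotides with 4 U-rich motifs, 1 of them 21 nucleotides from the end.

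**Figure D1:**
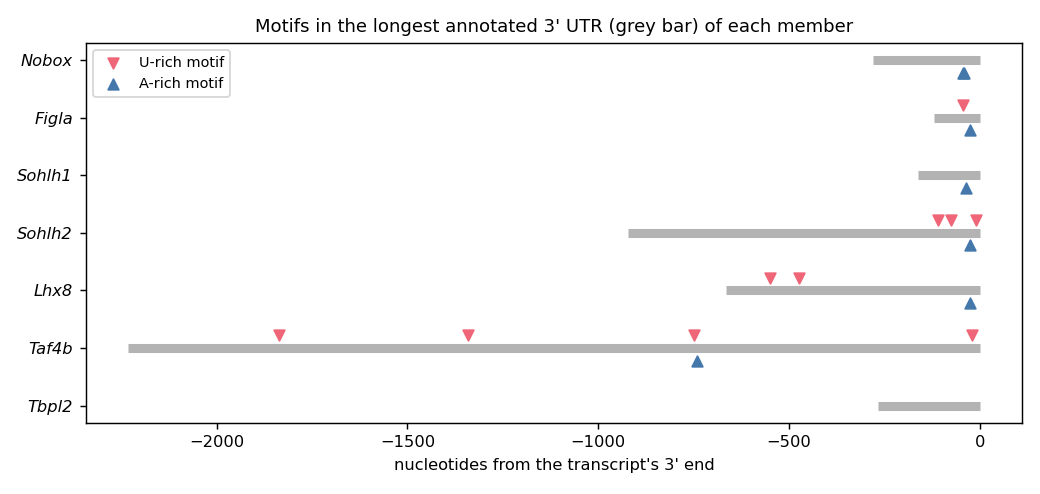
Positions of the searched motifs in the longest annotated 3′UTR of each member. The x axis gives nucleotides from the 3′ end of the transcript, grey bars are the 3′UTRs, red triangles are U-rich motifs and blue triangles are A-rich motifs. The 3 U-rich motifs of Sohlh2 lie within 110 nucleotides of the end, those of Lhx8 do not, and Tbpl2 has no motif of either kind.

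Oocyte transcription factors act through short DNA motifs, and the helix-loop-helix members bind E-boxes (CANNTG). The RefSeq promoters (GRCm38.p6, 250 bases before to 50 after the start) matched 6 of the 7 members. Of 32851 promoters of that length, 72.3% held CANNTG on either strand and 7.15% held CACGTG, which is also a CANNTG. Sohlh1, the member called between genotypes in 2cell embryos, had 3 CACGTG, at -231, -211 and -192 bases from its start, and none was in the other matched promoters. Taf4b was the member not matched. CAGGTG, another CANNTG, was in 20.2% of promoters and was found 3 times for Figla, 2 times each for Sohlh1 and Nobox, and 1 time for Tbpl2. The homeodomain motifs TAATTG and TAATTA, and the TATA box motif TATAAA, were in none of the 6 windows, against 8%, 5.29% and 13.6% of all promoters. The CACGTG sites of Sohlh1 are shown in capitals.
Sohlh1 at chr2:25847463-25847490, minus strand: ctgcaagctatCACGTGggctgtgatca
Sohlh1 at chr2:25847443-25847470, minus strand: tgtgatcaggtCACGTGgtctgaaggtc
Sohlh1 at chr2:25847424-25847451, minus strand: ctgaaggtctgCACGTGaagcagggagt

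The libraries held 17.1-23.5 M fragments (M, mega) each, as estimated from the steps between low values, and Pearson r within groups was 0.9456-0.9835. The summed level of the 5 oocyte markers was 464.6-625.7 FPKM (fragments per kilobase of transcript and per M fragments) in MII libraries and 76.02-141.8 FPKM in 2cell libraries. The 9 listed markers of cumulus and granulosa cells summed to at most 0.7165 FPKM in any library, with Foxl2, a granulosa cell factor, listed at 0 in every MII library. The 8 markers of 2cell transcription summed to 424.3-706.2 FPKM in 2cell libraries. In MII their sum was 37.79-45.03 FPKM for heterozygous oocytes and 45.87-61.34 FPKM for those labelled CPEB3-/-. Of the 2 blood markers only Hba-a1, a globin gene, was listed, at no more than 0.4278 FPKM in MII and at 34.27-98.65 FPKM in 2cell libraries. Cpeb3 RNA itself was not lower in the libraries labelled CPEB3-/-. Among MII oocytes the heterozygous libraries had 0.0755 ± 0.0240 FPKM (SD, n = 5), and those labelled CPEB3-/- had 0.162 ± 0.0325 FPKM (SD, n = 5). Among 2cell embryos the same order was seen, 0.0303 ± 0.0149 FPKM (SD, n = 5) followed by 0.0555 ± 0.0129 FPKM (SD, n = 4). A gene-level value does not show whether the floxed exons are present. The genotypes below are therefore those of the labels.

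In MII oocytes Nobox stood far above the other members. In CPEB3+/- oocytes its mean level per length was 24.55 ± 3.81 FPKM (SD, n = 5), at the 98.11 percentile of listed genes. Tbpl2 followed at 0.509 ± 0.0819 FPKM and did not overlap with Nobox or with the next member. Lhx8 (0.308 ± 0.0653 FPKM), Sohlh2 (0.306 ± 0.0263 FPKM), Figla (0.268 ± 0.0667 FPKM) and Taf4b (0.203 ± 0.0248 FPKM) each overlapped with their neighbour in this order. Sohlh1 was listed at 0 in all 5 libraries. In CPEB3-/- oocytes Nobox was again first, and Sohlh2 moved to second place, although its range overlapped with that of Tbpl2. Apart from Nobox, the members' values rest on few fragments. A Figla value corresponds to about 0.6-6.3 fragments per MII library, a Sohlh2 value to about 13-36 and a Nobox value to about 862-1746. No exon of another annotated gene overlaps an exon of a member.

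**Figure D2:**
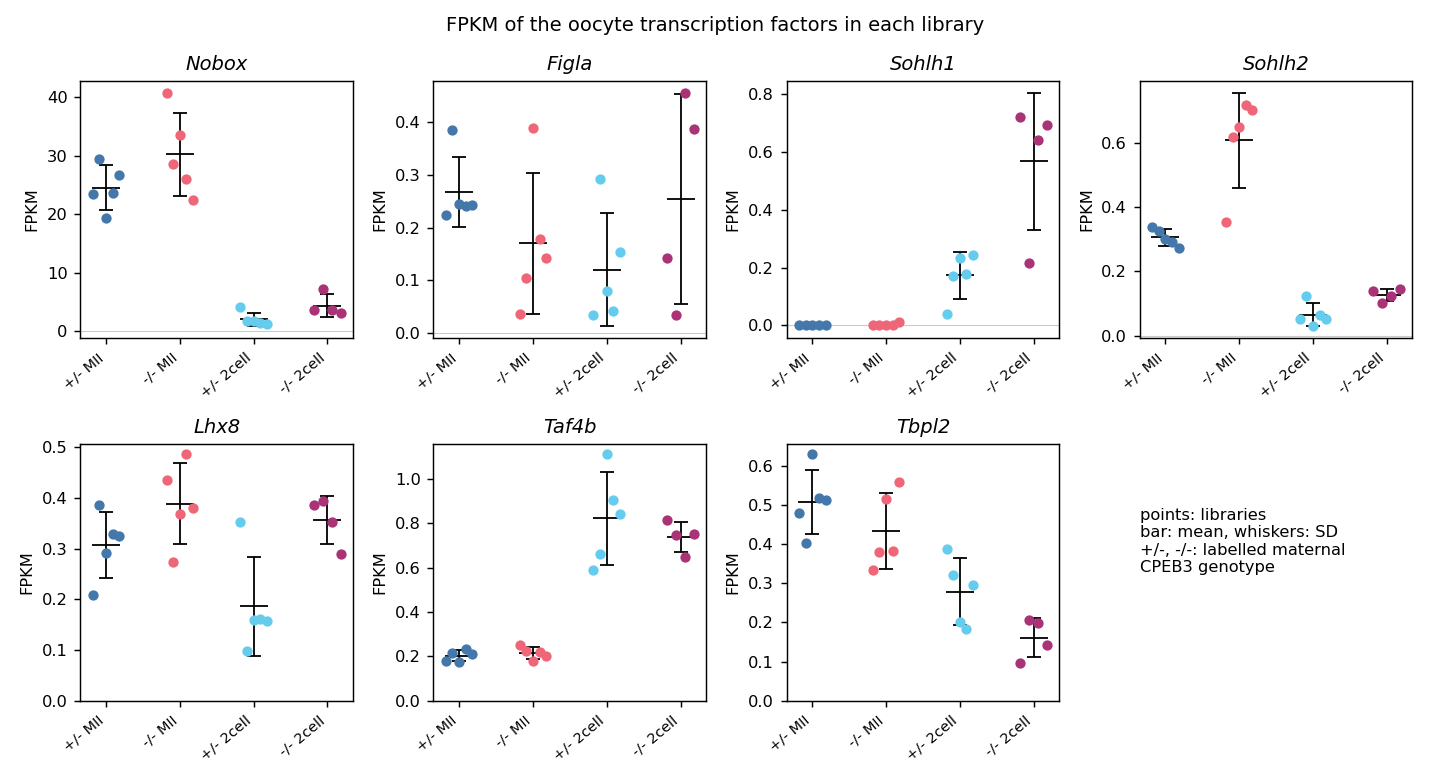
FPKM of each member in each of the 19 libraries, by stage and labelled maternal CPEB3 genotype. Points are libraries, the bar is the mean and the whiskers are the SD, and each panel has its own scale. Nobox is above 19 FPKM in every MII library and below 8 FPKM in every 2cell library, and Sohlh1 is at or near 0 in MII.

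Between the stages, Nobox, Sohlh2 and Tbpl2 were lower and Taf4b and Sohlh1 higher in 2cell embryos, in both genotypes. FPKM is relative to the RNA of a library, so it does not show the amount of RNA per cell. Summed FPKM was also higher in 2cell than in MII libraries, so an equal FPKM is a smaller share of the sum in 2cell embryos. In the limma fit across all genes, adjusted after Benjamini and Hochberg, a gene was called at an adjusted p under 0.05 and a change of more than 1.5-fold on the log2(FPKM + 0.1) scale. By this rule 66.2% of all tested genes were called between the stages in CPEB3+/- and 65% in CPEB3-/- libraries. Over all tested genes, 58.9% in CPEB3+/- and 59.3% in CPEB3-/- showed no overlap between the stages, so a lack of overlap is the usual case here. Sohlh1 entered this fit through its 2cell libraries alone and is left out of the count. Of the other 6 members, 6 were called in CPEB3+/- (5 lower, 1 higher) and 4 in CPEB3-/- (3 lower, 1 higher). In CPEB3+/-, Sohlh2 and Figla reached 0.1 FPKM in all 5 MII libraries but in only 1 and 2 of the 5 2cell libraries. The 5 lower calls include both, so the CPEB3+/- count is not read against the share over all genes.

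Nobox had the largest fall of the members. The CPEB3+/- MII libraries held 23.50, 29.50, 19.38, 23.63 and 26.73 FPKM and the 2cell libraries 4.05, 1.65, 1.68, 1.46 and 1.19 FPKM (replicates A to E). In CPEB3-/- the MII libraries held 40.81, 28.59, 33.54, 26.05 and 22.38 FPKM and the 2cell libraries 3.53, 7.22, 3.57 and 3.04 FPKM. No 2cell library reached the lowest MII library in either genotype. The log2 change was -3.83 ± 0.27 (SE, limma adjusted p = 3.0e-10) in CPEB3+/- and -2.95 ± 0.28 (SE, limma adjusted p = 3.0e-08) in CPEB3-/-. Mean Nobox in 2cell embryos was thus 0.0816 and 0.143 of its MII level.

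Of the factors with Nobox in small follicles, Sohlh2 fell by 1.43 on the log2 scale in CPEB3+/- and by 1.69 in CPEB3-/- embryos, again without overlap between the stages. Lhx8 fell by 0.67 in CPEB3+/- (SE 0.19, limma adjusted p = 0.00346). Its log2 change in CPEB3-/- was -0.19 with a 95% interval of -0.60 to 0.22, and it was not called. Figla was called in CPEB3+/- with a log2 change of -0.96 ± 0.38 (SE, limma adjusted p = 0.0305), although the ranges overlapped, and it was not called in CPEB3-/- (log2 change 0.22, interval -0.63 to 1.06). The Figla call in CPEB3+/- was lost without MII replicate B, whose 0.386 FPKM was the highest of its group (limma adjusted p = 0.0646). It was also lost without 2cell replicate A, C or D (limma adjusted p = 0.0783, 0.0596 and 0.0761). The Lhx8 call was lost without 2cell replicate B, where the log2 change was -0.55 and under 1.5-fold. With FPKM as deposited, without scaling, both calls were lost (Figla, limma adjusted p = 0.0579; Lhx8, log2 change -0.55), and with log2(FPKM + 1) both changes were under 1.5-fold. The stage changes of Sohlh2 were also under 1.5-fold on that scale, in both genotypes (-0.33 and -0.53). The 2cell values rest on very few fragments. Per library these were about 0.5-4.2 for Figla, 1.3-5.6 for Sohlh2 and 4.7-9.9 for Tbpl2 in CPEB3+/-. In CPEB3-/- they were about 0.5-6.0, 4.4-6.6 and 2.5-5.2.

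The basal factors split. Tbpl2 fell by 0.84 on the log2 scale in CPEB3+/- and by 1.12 in CPEB3-/-, and no 2cell library reached the lowest MII library of its genotype. The CPEB3+/- call was lost when the trend with GC content was removed, where the log2 change was -0.55 and under 1.5-fold, and with log2(FPKM + 1) both calls were lost (-0.29 and -0.32). Taf4b rose in both. Its CPEB3+/- libraries held 0.178, 0.214, 0.175, 0.233 and 0.212 FPKM in MII and 0.588, 0.660, 1.11, 0.905 and 0.843 FPKM in 2cell embryos. Every 2cell library was above every MII library, and the mean was 4.06-fold higher. The log2 change of Taf4b was 1.47 ± 0.13 (SE, limma adjusted p = 7.2e-09) in CPEB3+/- and 1.30 ± 0.14 (SE, limma adjusted p = 9.1e-08) in CPEB3-/-. With log2(FPKM + 1) it was 0.56 and 0.46, under 1.5-fold, and both calls were lost.

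Sohlh1 RNA was seen in 2cell embryos and hardly at all in MII oocytes. CPEB3-/- MII replicate E held 0.0107 FPKM, which is less than 1 fragment, and the other MII libraries were listed at 0. The 2cell libraries held 0.0382, 0.172, 0.232, 0.179 and 0.244 FPKM in CPEB3+/- and 0.719, 0.215, 0.640 and 0.694 FPKM in CPEB3-/-. These correspond to about 0.9-6.3 and 5.1-17 fragments. No library of MII oocytes reached the filter of 0.1 FPKM, so no fold against MII is given.

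**Figure D3:**
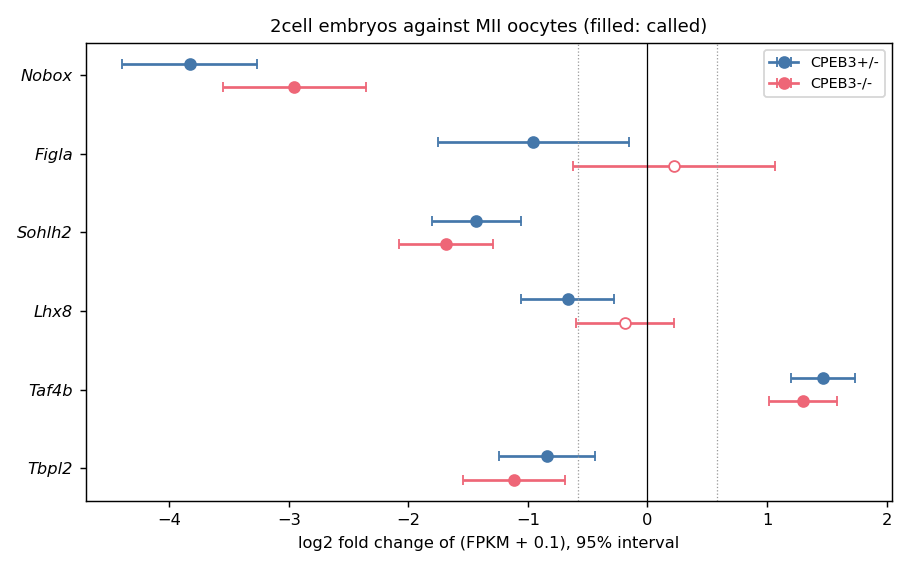
Log2 change of (FPKM + 0.1) from MII oocytes to 2cell embryos for the 6 members other than Sohlh1, with 95% intervals from the limma fit. Blue is CPEB3+/- and red CPEB3-/-, filled points are called, and dotted lines mark 1.5-fold. Nobox lies farthest to the left in both genotypes and Taf4b is the member to the right of 0 in both.

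The CPEB3-/- and CPEB3+/- libraries were compared within each stage to ask whether loss of CPEB3 in growing oocytes goes with a change of these factors. In MII oocytes 12.9% of all tested genes were called. Sohlh1 did not pass the filter of 0.1 FPKM in 5 libraries, and of the 6 members tested 1 was called, Sohlh2. This share, 1 of 6, is near the background. Median log2 change was 0.09 over the tested members and 0.01 over all tested genes.

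Sohlh2 was higher in CPEB3-/- oocytes. The CPEB3+/- libraries held 0.340, 0.325, 0.301, 0.291 and 0.274 FPKM and the CPEB3-/- libraries 0.354, 0.618, 0.650, 0.720 and 0.704 FPKM. Replicate A of CPEB3-/- lay just above the highest CPEB3+/- library, and the other 4 lay well above it. The log2 fold change was 0.70 ± 0.18 (SE, limma adjusted p = 0.0221), and the ratio of the means was 1.99. Over all tested genes, 16.3% showed no overlap of the groups. The call was lost without CPEB3+/- replicate D (limma adjusted p = 0.0520) and without CPEB3-/- replicate C (limma adjusted p = 0.0507). It was also lost with no filter on low values (limma adjusted p = 0.0526), with the replicate letters as a block (limma adjusted p = 0.0782) and with log2(FPKM + 1), where the log2 fold change was 0.27. Beside this, the 4 listed male germ cell markers, of cells that also use Sohlh2, summed to 0.3054-0.4689 FPKM in CPEB3+/- MII libraries. In CPEB3-/- MII libraries they summed to 0.6393-1.44 FPKM. Tnp1 was at 0 in all of these libraries, so the difference lies in the other listed markers. The 8 markers of 2cell transcription were higher, and the summed level of the 28 oocyte genes described below was lower, in the CPEB3-/- MII libraries without overlap (2512-3182 against 3516-3706 FPKM for the oocyte genes). The part of either list in the differences between genotypes in MII oocytes was not tested.

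The other members tested in MII did not pass. Nobox had a log2 fold change of 0.18 (95% interval -0.11 to 0.48), Lhx8 of 0.19 (-0.14 to 0.52) and Taf4b of -0.01 (-0.23 to 0.21). Tbpl2 had a log2 fold change of -0.28 (-0.65 to 0.10). The interval of Figla was the widest, from -1.24 to 0.01 around -0.62. Its CPEB3+/- libraries held 0.223, 0.386, 0.245, 0.242 and 0.244 FPKM and its CPEB3-/- libraries 0.0363, 0.105, 0.390, 0.178 and 0.142 FPKM, so that 4 of 5 CPEB3-/- libraries lay below every CPEB3+/- library and replicate C lay above. Without replicate C, Figla was called (log2 fold change -0.85, limma adjusted p = 0.0334).

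In 2cell embryos 18.1% of all tested genes were called. Sohlh2 passed the filter through the CPEB3-/- libraries, all 4 of which were above 0.1 FPKM against 1 of the 5 CPEB3+/- libraries, and is left out of the count. Of the other 6 members 1 was called, Sohlh1, which is near the background. No member's groups were free of overlap, against 20% of all tested genes. Sohlh1 had a log2 fold change of 1.24 ± 0.35 (SE, limma adjusted p = 0.0342). As listed above, 3 of the 4 CPEB3-/- libraries lay above every CPEB3+/- library and replicate B lay among them. The call was lost without CPEB3+/- replicate B or D, or CPEB3-/- replicate A, C or D (limma adjusted p = 0.0580, 0.0593, 0.0889, 0.0872 and 0.0939), and when the trend with GC content was removed (log2 fold change 0.88, limma adjusted p = 0.0969). It was also lost with no filter on low values (limma adjusted p = 0.0763), with the replicate block (limma adjusted p = 0.0997) and with log2(FPKM + 1), where the log2 fold change was 0.40.

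Nobox and Lhx8 followed in log2(FPKM + 0.1) difference in 2cell embryos. Nobox had a log2 fold change of 1.09 with an interval of 0.23 to 1.94 (limma adjusted p = 0.0731) and was not called. Every CPEB3-/- library lay above 4 of the 5 CPEB3+/- libraries, and CPEB3+/- replicate A, at 4.05 FPKM, lay among the CPEB3-/- values. Lhx8 showed the same arrangement. Its CPEB3+/- libraries held 0.354, 0.0985, 0.160, 0.161 and 0.158 FPKM and its CPEB3-/- libraries 0.387, 0.395, 0.353 and 0.290 FPKM, with replicate A of CPEB3+/- again among the CPEB3-/- values. The log2 fold change of Lhx8 was 0.69 (interval 0.13 to 1.26, limma adjusted p = 0.0818). Without CPEB3+/- replicate A both were called (limma adjusted p = 0.0116 for Nobox and 0.0117 for Lhx8). Both were also called with all 19 libraries in 1 fit (limma adjusted p = 0.0119 and 0.0211) and when scaled to the sum of FPKM (limma adjusted p = 0.0276 and 0.0266). Nobox was called with a filter of 1 FPKM as well (limma adjusted p = 0.0336). Over all alternatives planned for each, Nobox had adjusted p of 0.0116 to 0.188 and Lhx8 of 0.0117 to 0.202 in limma.

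Of the remaining members, Sohlh2 held 0.0523, 0.125, 0.0311, 0.0635 and 0.0531 FPKM in CPEB3+/- and 0.138, 0.102, 0.122 and 0.147 FPKM in CPEB3-/- libraries, which overlapped. Tbpl2 had a log2 fold change of -0.55 (-1.10 to -0.01), Figla of 0.57 (-0.48 to 1.63) and Taf4b of -0.14 (-0.53 to 0.24). None of these was called. The Tbpl2 libraries held 0.389, 0.321, 0.200, 0.184 and 0.296 FPKM in CPEB3+/- and 0.0972, 0.205, 0.198 and 0.143 FPKM in CPEB3-/-, which overlapped. Values of Figla ran from 0.0336 to 0.292 FPKM in CPEB3+/- and from 0.0335 to 0.456 FPKM in CPEB3-/-.

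**Figure D4:**
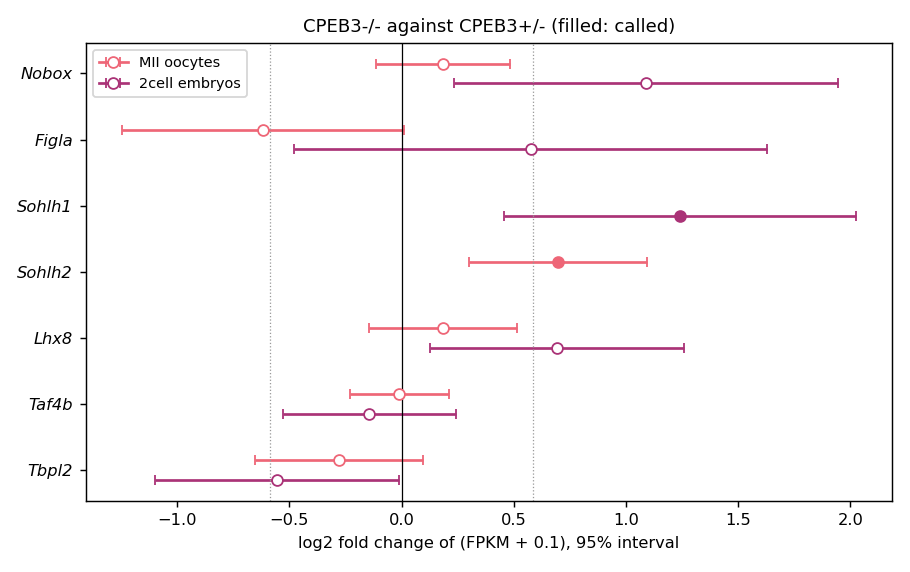
Log2 fold change of (FPKM + 0.1) of CPEB3-/- against CPEB3+/- libraries for each member, with 95% intervals from the limma fits within each stage. Light red is MII and dark red 2cell, filled points are called and dotted lines mark 1.5-fold. Sohlh2 in MII and Sohlh1 in 2cell embryos are the filled points, Sohlh1 was not tested in MII, and Sohlh2 in 2cell embryos is not drawn because it passed the filter through the CPEB3-/- libraries.

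The 2cell libraries with the most Nobox also held the least Sohlh1. In CPEB3+/-, replicate A had the highest Nobox and the lowest Sohlh1, 0.0382 FPKM against 0.172-0.244 FPKM in the others. In CPEB3-/-, replicate B had the highest Nobox, 7.22 FPKM, and the lowest Sohlh1, 0.215 FPKM against 0.640-0.719 FPKM. Summed oocyte markers were also highest in these libraries, at 141.8 FPKM in CPEB3+/- replicate A and 104 FPKM in CPEB3-/- replicate B. The margin in CPEB3-/- was small, with 99.7 FPKM in replicate C. The 28 oocyte genes described below summed highest in CPEB3+/- replicate A (1349 FPKM), but in CPEB3-/- replicate C (1387 FPKM) was above replicate B (1331 FPKM). The same libraries were also the highest of their groups in the summed markers of 2cell transcription, at 706.2 FPKM against 444.3-580.6 FPKM and at 591.6 FPKM against 424.3-499.1 FPKM. The differences between genotypes were refitted without each of them. Without CPEB3+/- replicate A the log2 fold change was 1.39 for Nobox, 0.90 for Lhx8 and 1.02 for Sohlh1. Without CPEB3-/- replicate B it was 0.80, 0.64 and 1.56. Why these libraries stood apart was not tested.

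**Figure D5:**
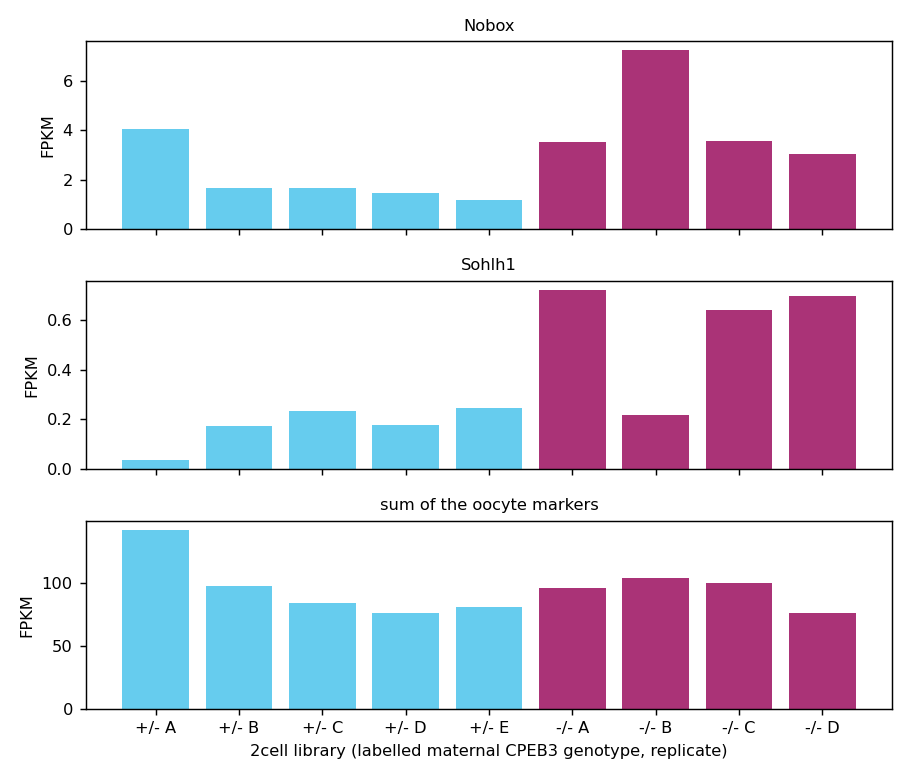
Nobox, Sohlh1 and the summed oocyte markers in FPKM in each 2cell library, light blue for CPEB3+/- and purple for CPEB3-/-. CPEB3+/- replicate A and CPEB3-/- replicate B are the highest of their groups in the upper and lower panels and the lowest of their groups in the middle panel.

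Whether the genotype difference itself differed between the stages was tested as an interaction in the fit of all 19 libraries. Sohlh1, at or near 0 in MII, has no measurable genotype difference there, so its interaction would restate the 2cell difference and is not used. Of all tested genes 8.1% were called, and of the other 6 members 0 were called by limma, with 2 at an unadjusted p under 0.05. These were Nobox (log2 difference 0.87, limma adjusted p = 0.185) and Figla (1.17, limma adjusted p = 0.213). For Sohlh2 the log2 difference was -0.26 (limma adjusted p = 0.602), so its call in MII is not shown to be confined to that stage. Nobox passed without CPEB3+/- 2cell replicate A (limma adjusted p = 0.0172).

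The partners of the members were described in the same fits. Of the 13 tested partners, the basal machinery and dimer partners of helix-loop-helix and LIM factors, 2 rose and 1 fell in CPEB3-/- MII oocytes (23.1% called, beside 12.9% of all tested genes). Id2 and Id3, which bind and block helix-loop-helix factors, rose. Id2 went from 0.719 ± 0.169 to 1.92 ± 0.677 FPKM and Id3 from 0.931 ± 0.249 to 2.05 ± 0.492 FPKM (SD, n = 5 each; log2 fold change 1.18 and 0.96). Tbp, the general TATA-binding protein whose place TBPL2 takes, fell from 1.87 ± 0.229 to 1.11 ± 0.124 FPKM (log2 fold change -0.79). In 2cell embryos 1 of 12 tested partners was called (8.33%, beside 18.1% of all tested genes), Gtf2a1, a TFIIA subunit, which fell by 0.76 on the log2 scale. Of Stat3, Dynll1 and Sub1, which complete a known set of factors that drives oocyte growth with several members, Stat3 rose in MII (log2 fold change 0.74) and in 2cell embryos (from 0.292 ± 0.0641 to 0.693 ± 0.0383 FPKM) and Sub1 fell in 2cell embryos (log2 fold change -0.86).

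The 28 oocyte genes that the members are known to serve were all tested. Between the stages 25 were lower in CPEB3+/- embryos, and in CPEB3-/- embryos 25 were lower and 1 higher, beside 27% and 26.5% of all tested genes called lower, with a median log2 change of -2.14 and -2.08. Between genotypes 5 were called in MII (2 higher, 3 lower) and 6 in 2cell embryos (5 higher, 1 lower). These shares, 17.9% and 21.4%, are near the 12.9% and 18.1% called over all tested genes. Mos, the kinase that holds MII arrest, fell from 213.8 ± 47.8 to 67.5 ± 12.3 FPKM in CPEB3-/- MII oocytes (log2 fold change -1.75). Oosp3 and Dppa3, a maternal factor that protects DNA methylation, had log2 fold changes of -0.97 and -0.66, whereas Oas1c rose by 0.73. In 2cell embryos Oas1c rose again (0.93), as did Ooep, a subunit of the subcortical maternal complex (0.91), Fgf8 (0.85) and Pabpc1l, an oocyte poly(A)-binding protein (0.81). The list thus held calls in both directions. Median log2 fold changes were -0.06 in MII and 0.16 in 2cell embryos.

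Among the other regulators of oocyte and follicle formation, limma called 0 of 6 in MII, with 0 at an unadjusted p under 0.05, and 1 of 6 in 2cell embryos, Pou5f1, a pluripotency factor, which rose from 3.22 ± 0.835 to 5.62 ± 1.07 FPKM (log2 fold change 0.76). These shares, 0% and 16.7%, stand beside 12.9% and 18.1% of all tested genes. Of the relatives of the members, Tbp was the 1 called of 5 in MII (20%, beside 12.9%). In 2cell embryos the LIM homeodomain gene Lhx1 rose from 1.57 ± 0.369 to 5.17 ± 0.956 FPKM (log2 fold change 1.63). Lhx5 and Lhx2 were also called higher, but 3 and 2 of the 5 CPEB3+/- libraries reached 0.1 FPKM against all 4 CPEB3-/- libraries, so no count of the relatives is given.

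Nobox was the member with a mean of at least 1 FPKM over all libraries, so the genes most like it were sought among the 5279 genes above that level. Zfp750 (Pearson r = 0.987 of the log2 values over 19 libraries), Rae1 (r = 0.984) and Dcp1a (r = 0.981) had the closest patterns. These genes, like Nobox, had lower means in 2cell than in MII libraries in both genotypes, and r was taken across that step. Likeness within a stage was not tested.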

How the data were processed

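Libraries were grouped by the genotype and stage in their labels. Per the labels and methods, the authors prepared libraries with SMART-seq v4, trimmed reads with Trim Galore 0.4.1, mapped them with HISAT2 2.0.5 to GRCm38 and obtained gene values with SeqMonk. Although its name speaks of counts, the deposited table was read as FPKM, because they are not whole and low values lie near steps of 1 fragment (45.4% within 0.05 of a step, 10% by chance). Tests for counts were therefore not used. There were 0 unused columns. The methods name quadruplicates and a HiSeq X, the labels 5 libraries in most groups and a NovaSeq. Depth was estimated from the steps in 9238 genes with 1 transcript, and approximate fragments are FPKM times transcript length times depth.

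Libraries were brought to a common scale with a trimmed mean of their log ratios (30% and 5% trimmed). The model, limma 3.58.1 run in R 4.3.3 with a variance trend, took log2(FPKM + 0.1). Genes with 0.1 FPKM in at least 5 (MII) or 4 (2cell, joint fit) libraries were tested, 10514, 14050 and 15785 in all. Genotype was tested within each stage, and stage and interaction in 1 fit of 19 libraries. The Benjamini-Hochberg adjustment covered all tested genes. The fits were tested on simulated data, with changes planted in genes with a mean above 1 FPKM. Of the planted 2-fold changes, 77% were recovered in MII, 52% in 2cell embryos and 67% in the joint fit. Of 4-fold changes, 98%, 90% and 97% were recovered. Nobox is the member above that level, so the simulation does not cover the others. The log2 fold changes understate the change of low genes. Alternatives were other scalings, another pseudocount or filter, removal of the GC trend (99% of genes had a GC content), a replicate block, 1 fit of all libraries and leaving out libraries.

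The members and lists were chosen with earlier results of these data known. Named genes were the members, up to 4 called genes with the largest change per list and stage, and the 3 genes most like Nobox. Lists were partners, the growth set, other regulators, served oocyte genes, relatives and the cell type markers. Counts of CACGTG were looked at after the sites were seen.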

Additional observations from a re-analysis of the deposited data

Results flagged for a closer look

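In 7 of the 27 groups of 4 or 5 libraries examined, 1 library lay far from the others by Dixon's test. Chance does so in about 1 in 20 independent groups of normal values. Many values here rest on few fragments and the groups share libraries, so no excess is read from this count. Figla was 0.386 FPKM in CPEB3+/- MII replicate B, against 0.223-0.245 FPKM in the other 4 libraries. Nobox was 4.05 FPKM in CPEB3+/- 2cell replicate A, against 1.19-1.68 FPKM, and 7.22 FPKM in CPEB3-/- 2cell replicate B, against 3.04-3.57 FPKM. Sohlh1 was 0.0107 FPKM in CPEB3-/- MII replicate E, with the other 4 listed at 0, where any value above 0 is flagged. It was 0.215 FPKM in CPEB3-/- 2cell replicate B, against 0.640-0.719 FPKM. Sohlh2 was 0.354 FPKM in CPEB3-/- MII replicate A, against 0.618-0.720 FPKM. Lhx8 was 0.354 FPKM in CPEB3+/- 2cell replicate A, against 0.0985-0.161 FPKM. CPEB3+/- 2cell replicate A and CPEB3-/- 2cell replicate B each appear 2 times.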

How the results depend on the processing

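Of 757 planned refits of the members, 700 kept direction and call, 31 lost the call, 15 gained one and 11 changed sign. These include the refits of Sohlh1 between the stages and in the interaction, and of Sohlh2 in 2cell embryos, which are set aside above. Some of the gained calls are theirs. Stage refits without a library of the other genotype hardly move an estimate, so the 700 overstate how far the results were kept. Sign changes were seen for Taf4b in MII (0.056 with deposited values, 0.11 when scaled to the sum of FPKM, 0.037 with the GC trend removed, -0.034 to 0.039 without 1 library), Taf4b in 2cell embryos (0.15) and in the interaction (0.029) when scaled to the sum, and Figla between the stages in CPEB3-/- (-0.041 when scaled to the sum, -0.059 to 0.59 without 1 library). The cause was not tested.

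Called genes fell with log2(FPKM + 1) to 480 (MII), 1165 (2cell), 5262 and 5226 (stage, CPEB3+/- and CPEB3-/-) and 833 (interaction), from 1352, 2540, 10453, 10256 and 1278. A filter of 1 FPKM, which tests fewer genes, gave 777, 1496, 5267, 5134 and 766. Leaving out 1 library gave 949-1542, 1822-2568, 10146-10695, 10046-10419 and 963-1503. Scaling to the sum of FPKM moved the median log2 change of all genes to 0.15 in MII and 0.26 in 2cell embryos, and the higher share of calls from 43.3% to 70.1% and from 47.8% to 80.9%. It moved the stage medians to -0.17 and -0.07. In CPEB3+/- it moved the log2 stage change of Taf4b from 1.47 to 0.95 and that of Nobox from -3.83 to -4.42. With deposited values 57.1% of MII calls were higher.

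Replicate letters did not pair the libraries (r of deviations -0.233 to 0.149). With the replicate block 822 genes were called in MII and 399 in 2cell embryos, and Sohlh2 in MII (adjusted p = 0.0782) and Sohlh1 in 2cell embryos (adjusted p = 0.0997) were not called. Sohlh2 in MII was called in 8 of 10 refits without 1 library and in 4 of 7 other settings, Sohlh1 in 2cell embryos in 4 of 9 and 3 of 7.

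CPEB3+/- replicate A and CPEB3-/- replicate B of the 2cell libraries were also left out together. They were chosen after their values were seen, because they stood apart in Nobox, and they are also the libraries that stood apart in Sohlh1 and Lhx8. The smaller spread of these 3 members follows from the choice, and none of their p is an independent test. Then 1805 genes were called in 2cell embryos, Sohlh1, Nobox and Lhx8 among them, with log2 fold changes of 1.34, 1.11 and 0.84. This fit is in none of the counts above.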
